A study of Mus musculus with 2 samples.

Results

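The miR-17~92 cluster and its relative miR-106b~25 were examined in microRNA sequencing of mouse cerebral cortex. The hairpin genes were taken by name from the table of 2202 annotated miRNA genes. They were Mir17, Mir18, Mir19a, Mir20a, Mir19b-1 and Mir92-1 of the host gene Mir17hg, Mir106b, Mir93 and Mir25 of the host gene Mcm7, and Mir92-2, the second locus that encodes miR-92a, which makes 10 genes in all. All 10 names were found. Total RNA of the left cerebral cortex came from 5xFAD/CAST females that were adult (8 to 10 months), and fragments shorter than 30 nt were sequenced. 5xFAD mice are bred as a model of amyloid plaque formation and carry transgenes under the neuronal Thy1 promoter, while CAST is a wild-derived mouse strain. Beyond the strain name, the labels give no transgene status. The 2 libraries are biological replicates 1 and 2 of 1 group. They name 1 donor entry and separate tissue samples, so the 2 libraries may be technical repeats. The p-values compare 1 library with the other and do not measure the spread between animals or between repeats. No second genotype, age or treatment was available for comparison.

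MicroRNAs are short RNAs cut from hairpins, and bases 2 to 8 of the mature strand, the seed, pair with target mRNAs. One primary transcript of Mir17hg carries all hairpins of miR-17~92, which MYC and E2F factors switch on in dividing cells and which favours proliferation and survival through targets such as Bcl2l11 and Cdkn1a. The miR-106b~25 hairpins lie inside Mcm7, which encodes a subunit of the replicative DNA helicase. In the brain, both clusters are known mainly from neural stem and progenitor cells, and members of the miR-17 family have been described as repressors of App.

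The mature strands fall into 4 seed families, shown here because they decide both which targets are read and which loci a read can be assigned to. Each sequence is the strand usually taken as the functional one, written 5′ to 3′ from RefSeq (GRCm38.p6) with the seed in capitals. All 10 hairpins were found in that table.
miR-17-5p (Mir17): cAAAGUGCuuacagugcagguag
miR-20a-5p (Mir20a): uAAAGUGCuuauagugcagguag
miR-106b-5p (Mir106b): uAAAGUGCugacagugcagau
miR-93-5p (Mir93): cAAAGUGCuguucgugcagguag
miR-18a-5p (Mir18): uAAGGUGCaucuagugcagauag
miR-19a-3p (Mir19a): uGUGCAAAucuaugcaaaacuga
miR-19b-3p (Mir19b-1): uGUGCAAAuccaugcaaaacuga
miR-92a-3p (Mir92-1 and Mir92-2): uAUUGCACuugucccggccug
miR-25-3p (Mir25): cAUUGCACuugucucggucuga

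Positions are counted from 1 at the 5′ end, and a substitution gives the first strand's base, its position and the second strand's base. miR-17-5p and miR-20a-5p differed by C1U and C12U alone. miR-93-5p differed from miR-17-5p by U10G, A11U, C12U and A13C, all outside the seed. miR-18a-5p differed from miR-17-5p inside the seed by A4G, so it forms a family of its own. miR-19a-3p and miR-19b-3p differed by the single substitution U11C, and miR-25-3p differed from miR-92a-3p by U1C, C14U and C18U over 21 bases.

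Of the functional strands listed, 2 exist at a second locus. miR-92a-3p is the same at Mir92-1 and Mir92-2, and miR-19b-3p is the same at Mir19b-1 and Mir19b-2. The hairpins diverge at the first base after the mature strand, as the next 5 bases show in capitals.
Mir92-1: uauugcacuugucccggccugUUGAG
Mir92-2: uauugcacuugucccggccugAGGAA
Mir19b-1: ugugcaaauccaugcaaaacugaCUGUG
Mir19b-2: ugugcaaauccaugcaaaacugaUUGUG

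A read of the 21-base miR-92a-3p or the 23-base miR-19b-3p alone therefore matches both loci, and reads with several matches in the genome entered no gene's count. The counts of Mir92-1, Mir92-2 and Mir19b-1 are uncertain for this reason and cannot give the total level of miR-92a or miR-19b. Among the other functional strands, the longest stretch shared with any of 1004 other hairpins was 17 bases of miR-18a-5p, at Mir18b. miR-17-5p and miR-20a-5p each shared 13 bases, and miR-19a-3p shared 12 with the Mir19b hairpins. None of those strands had an exact copy in a gene other than its own hairpin and host among 141767 annotated transcripts. The whole genome was not searched.

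On chromosome 14 (mm10, plus strand) the miR-17~92 hairpins fill 836 nt of exon 2 of Mir17hg, a long noncoding RNA. They are Mir17 (ENSMUSG00000065508.1) from 115043671 to 115043754, Mir18 (ENSMUSG00000065403.1) from 115043851 to 115043946 and Mir19a (ENSMUSG00000065416.1) from 115044000 to 115044081. Mir20a (ENSMUSG00000065442.1) follows from 115044157 to 115044263, Mir19b-1 (ENSMUSG00000076256.1) from 115044305 to 115044391 and Mir92-1 (ENSMUSG00000076062.1) from 115044427 to 115044506. On chromosome 5 (minus strand) Mir106b (ENSMUSG00000065514.1) spans 138165737 to 138165818, Mir93 (ENSMUSG00000065527.1) 138165523 to 138165610 and Mir25 (ENSMUSG00000065394.1) 138165321 to 138165404. These hairpins lie in intron 13 of the 15-exon Mcm7 transcript Mcm7-201, outside coding and untranslated sequence. Mir93 and Mir25 also fall in exon 1 of the short transcript Mcm7-202. Mir92-2 (ENSMUSG00000065613.1) lies on chromosome X (minus strand), 52741838 to 52741928, in no annotated host transcript.

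The libraries held 4226300 counts on miRNA genes in replicate 1 and 5162369 in replicate 2. Levels are given as CPM, the count of a gene scaled to a common library total, with the mean ± SD over the libraries. A mean and SD of 2 values are imprecise. A read spans a whole mature strand, so counts were not divided by hairpin length. How well each mature strand was captured in the libraries was not measured. Orders and ratios of different genes are therefore those of counts, also where both libraries give the same value. Reads with several matches made up 40.4% and 39.4% of all reads. As a check of the tissue label, 8 of 11 neuronal marker genes reached 10 CPM in both libraries, with 70570 and 44666 CPM in sum. Mir132 (40577 and 21189 CPM) made up most of the difference between these sums. Mir128-1 (9000 and 3687 CPM), Mir128-2, Mir129-1 and Mir129-2 were also lower in replicate 2. Mir137 (6008 and 5769 CPM) and Mir383 (7295 and 7140 CPM) lay close together, and Mir138-1 (4244 and 4820 CPM) was higher in replicate 2. The 3 Mir124a loci stayed below 10 CPM in each library. Sequence shared among these loci was not searched, and reads with several matches entered no count. Their counts therefore may not give the level of the miRNA they encode. In bulk tissue, fewer cells of a type and less RNA per cell cannot be told apart.

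The Mir17hg hairpins were led by Mir17, Mir92-1 and Mir20a. Mir17, the founding member of the family, had 1741 and 2753 counts in replicates 1 and 2, which is 412 and 533 CPM. Its mean of 473 ± 85.8 CPM (SD, n = 2) was rank 127 of all miRNA genes. Mir92-1, whose miR-92a restrains vessel growth in endothelium, had 1790 and 1529 counts, or 424 and 296 CPM, with a mean of 360 ± 90.1 at rank 142. Mir17 and Mir92-1 overlapped between libraries, with Mir92-1 the higher of the pair in replicate 1 and Mir17 in replicate 2. Mir20a, the close relative of Mir17, had 792 and 1316 counts, or 187 and 255 CPM, and lay below both of them in each library.

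The other hairpins of the same transcript had few counts. Mir18 had 67 and 88 counts, or 15.9 and 17.05 CPM, so Mir17 had 26.0 times its counts in replicate 1 and 31.3 times in replicate 2. Mir19b-1, which encodes miR-19b, had 1 count in replicate 1 and 4 in replicate 2. Mir19a had 0 counts in both libraries. That allows up to 3 counts, or 0.710 CPM in replicate 1 and 0.581 CPM in replicate 2. Mir19b-1 was thus at or close to the limit that a count of 0 allows, and Mir19b-1 and Mir19a could not be ordered. Intervals and limits here cover counting error only. Unlike miR-19b-3p, miR-19a-3p has no second annotated locus, as shown with the sequences above. The reason for its count of 0 was not tested.

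**Figure D1:**
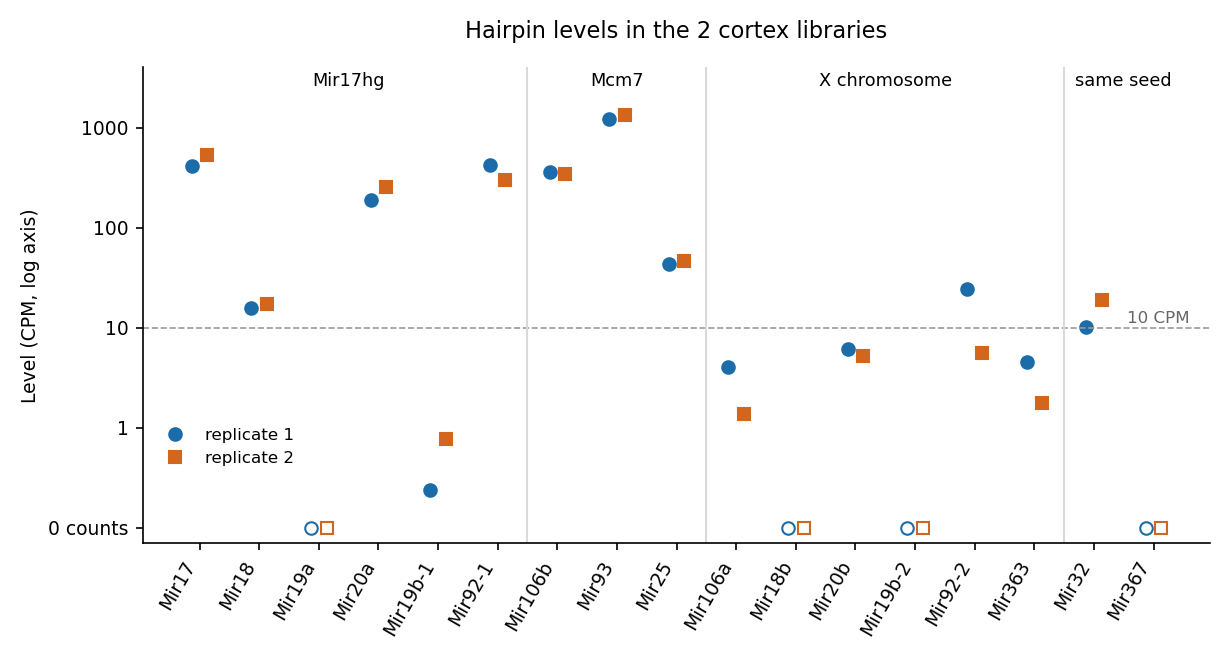
Level of each hairpin gene in CPM (log axis) in replicate 1 (circles) and replicate 2 (squares), grouped by host or locus, with open symbols at the bottom for 0 counts. Mir93 is the highest at 1214 and 1336 CPM, while Mir19a, Mir18b, Mir19b-2 and Mir367 had no count in either library.

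The Mcm7 hairpins differed in the same way among themselves, with Mir93 far above its neighbours. Mir93, a miR-17 family member, had 5129 and 6898 counts, or 1214 and 1336 CPM, and its mean of 1275 ± 86.7 CPM (SD, n = 2) was rank 84 of all miRNA genes. Mir106b, of the same seed, had 1527 and 1773 counts, or 361 and 343 CPM (352 ± 12.6). Mir25, which carries the miR-92 seed and has been linked to heart function, had 182 and 240 counts, or 43.1 and 46.5 CPM (44.8 ± 2.42). Mir93 had 28.2 times the counts of Mir25 in replicate 1 and 28.7 times in replicate 2. The order Mir93, Mir106b, Mir25 was the same in both libraries, with no overlap.

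Ordered by mean level over all members, the sequence was Mir93, Mir17, Mir92-1, Mir106b, Mir20a, Mir25, Mir18, Mir92-2, Mir19b-1 and Mir19a. The ranges of the libraries overlapped between Mir17 and Mir92-1, between Mir92-1 and Mir106b, and between Mir18 and Mir92-2. Of the 10 members, 7 reached 10 CPM in both libraries, against 309 of all 2202 genes. The members that did not were Mir19a, Mir19b-1 and Mir92-2. Summed, the Mcm7 hairpins had 1618 and 1726 CPM and the Mir17hg hairpins 1039 and 1102 CPM. The ratio of the sums was 1.56 in replicate 1 (exact 95% interval 1.499 to 1.62) and 1.57 in replicate 2 (1.51 to 1.62). The ratio thus differed between the libraries by less than counting error, and with 2 libraries of 1 group it has no further test. The Mir17hg sum includes Mir92-1 and Mir19b-1, whose reads matching a second locus entered no count. That sum and the ratio are therefore uncertain beyond counting error.

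**Figure D2:**
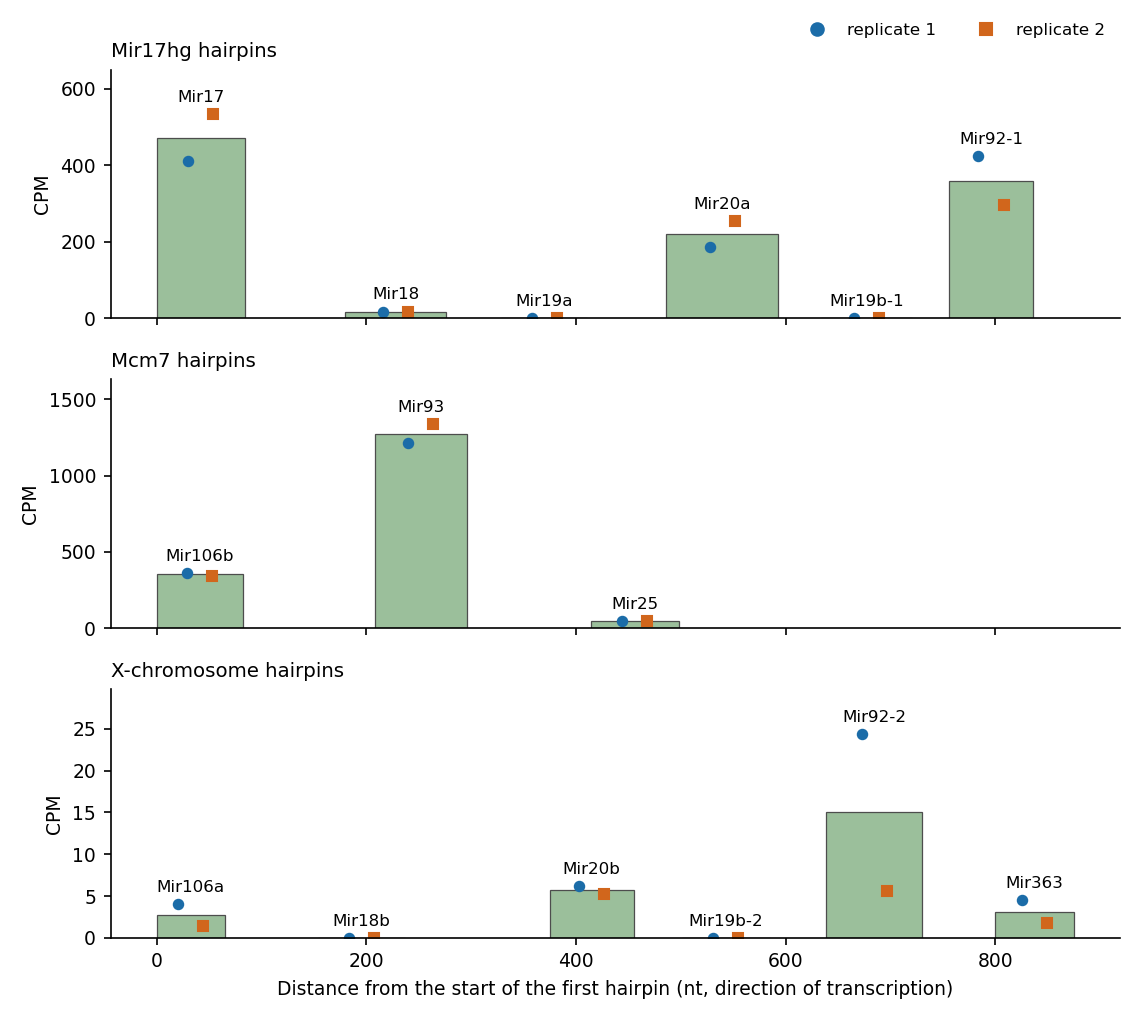
Hairpins of the Mir17hg, Mcm7 and X-chromosome clusters drawn to scale, with distance from the start of the first hairpin in nt on the x axis and level in CPM on the y axis, which differs between panels. Bars are means of the libraries, circles replicate 1 and squares replicate 2. Mir18, Mir19a and Mir19b-1 stay near 0 between the taller bars of Mir17, Mir20a and Mir92-1.

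Mir92-2 belongs to the miR-106a~363 cluster on chromosome X, a paralog of miR-17~92 that is known from embryonic stem cells. It had 103 and 29 counts, which is 24.4 and 5.62 CPM in replicates 1 and 2, so Mir92-1 had 17.4 times its counts in replicate 1 and 52.7 times in replicate 2. The cluster's other hairpins, listed as relatives, were lower still. Mir20b had 26 and 27 counts, Mir106a 17 and 7 and Mir363 19 and 9, while Mir18b and Mir19b-2 had 0 in both libraries. The whole X-chromosome cluster summed to 39.0 and 13.9 CPM, which is low beside either of the other clusters. Without Mir92-2 it summed to 14.7 and 8.33 CPM. Reads of miR-92a-3p alone match both Mir92-1 and Mir92-2 and entered neither count. The ratio of Mir92-1 to Mir92-2 and the cluster sum with Mir92-2 are therefore uncertain and cannot give the levels of these loci. Mir19b-2 shares its mature strand with Mir19b-1, so its count is uncertain for the same reason.

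Within Mir17hg, the shares of Mir17, Mir20a and Mir92-1 differed between the libraries, although these hairpins come from 1 primary transcript. Mir17 made up 39.6% of the cluster's counts in replicate 1 (exact 95% interval 38.2 to 41.1) and 48.4% in replicate 2 (47.1 to 49.7). Mir20a made up 18.0% (16.9 to 19.2) and 23.1% (22.04 to 24.2). Mir92-1 differed in the other direction, with 40.8% (39.3 to 42.2) in replicate 1 and 26.9% (25.7 to 28.0) in replicate 2. Mir18 kept its share, with 1.53% (1.18 to 1.93) in replicate 1 and 1.55% (1.24 to 1.90) in replicate 2. Shares within a cluster are not independent, since a lower share of 1 hairpin raises the summed share of the others. Mir17 and Mir20a kept their proportion, with a ratio of 2.20 in replicate 1 (2.02 to 2.39) and 2.09 in replicate 2 (1.96 to 2.24), which are within counting error of each other. The ratio of Mir17 to Mir92-1 was 0.973 (0.910 to 1.04) in replicate 1 and 1.80 (1.69 to 1.92) in replicate 2. These intervals do not overlap, and the ratio needs no scaling of the libraries. It does rest on Mir92-1, whose mature strand is shared with Mir92-2.

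In Mcm7 the shares of the libraries lay closer together. Mir93 made up 75.0% of the counts in replicate 1 (74.0 to 76.0) and 77.4% in replicate 2 (76.5 to 78.3), Mir106b 22.3% (21.3 to 23.3) and 19.9% (19.1 to 20.7), and Mir25 2.66% (2.29 to 3.07) and 2.69% (2.37 to 3.05). The shares of Mir93 and Mir106b differed by more than counting error, and the interval of Mir25 in each library held its share in the other.

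**Figure D3:**
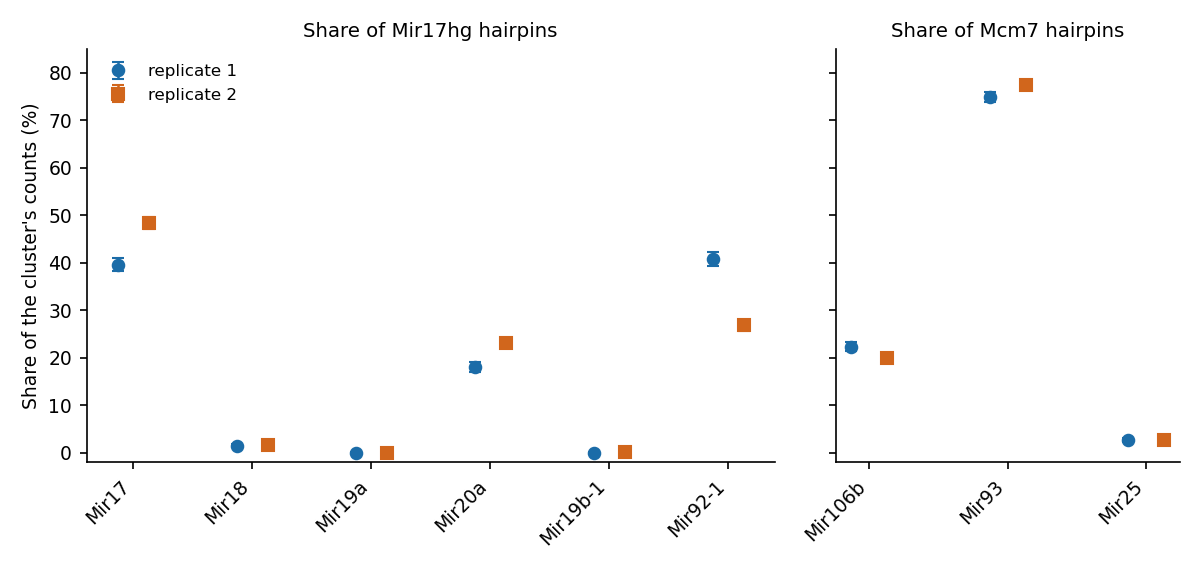
Share of each hairpin in the summed counts of its cluster, in percent, for Mir17hg (left) and Mcm7 (right), in replicate 1 (circles) and replicate 2 (squares) with exact 95% intervals for counting error. Mir92-1 holds 40.8% in replicate 1 and 26.9% in replicate 2, Mir17 and Mir20a hold larger shares in replicate 2, and the Mcm7 shares lie close together.

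Grouped by seed, the 4 members with the miR-17 seed held nearly all counts of that family. Over the 7 annotated genes with this seed the sum was 2184 CPM in replicate 1 and 2474 CPM in replicate 2, of which Mir93, Mir17, Mir106b and Mir20a made up 99.5% and 99.7%. The others were Mir20b, Mir106a and Mir6383, the last with 0 counts. A row sums both strands of a hairpin, so these are sums over genes and not over mature strands. The miR-18 family stood at 16.4 ± 0.844 CPM (SD, n = 2), all from Mir18. The 3 miR-19 genes had 5 counts in all, all of them from Mir19b-1. Reads of miR-19b-3p alone match both Mir19b-1 and Mir19b-2 and entered no count, so this sum cannot give the level of the family.

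Among the reads counted on a gene, the miR-92 seed was held mainly by a gene outside the clusters. Its 7 genes summed to 7806 and 5457 CPM, and Mir92b alone made up 93.5% and 93.2% of that. Mir92b is on neither list of genes fixed for naming and was found by the seed search. It had 30852 and 26265 counts, at rank 31 of all miRNA genes. Mir92-1, Mir25 and Mir92-2 made up 6.29% of the family in replicate 1 and 6.38% in replicate 2. Of the remaining genes, Mir32, in an intron of Tmem245, had 43 and 97 counts, Mir363 had 19 and 9, and Mir367 had 0 in both. Since miR-92a-3p reads that match both loci entered no count, the family sum and the share of each gene in it, Mir92b included, are uncertain. Which gene gives most of the family's mature strands cannot be told from these counts.

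**Figure D4:**
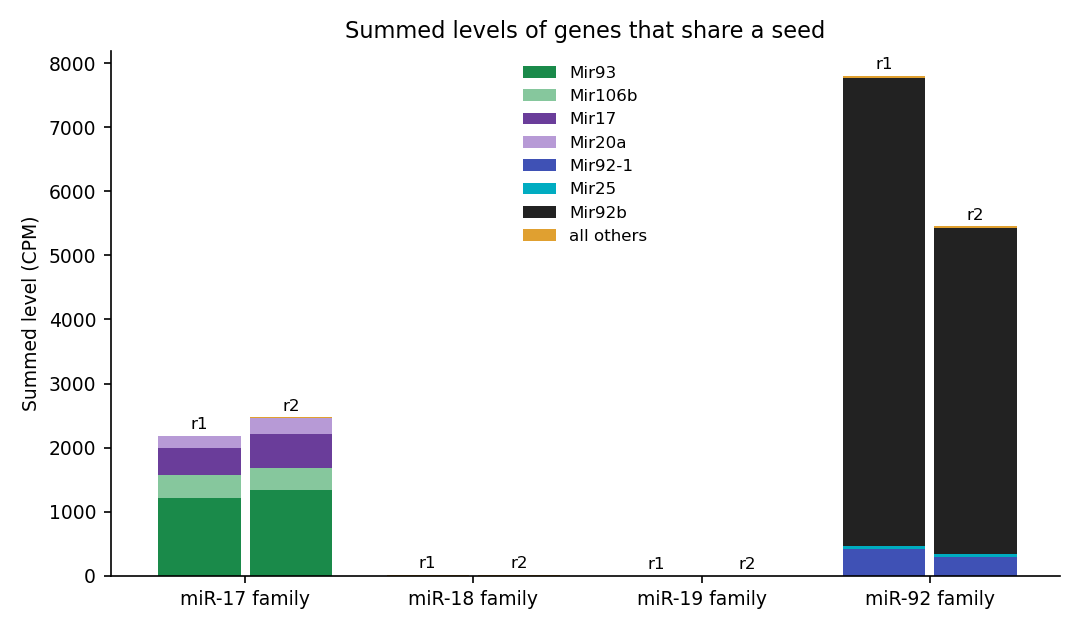
Summed level in CPM of all annotated genes that share a seed, for 4 families, with replicate 1 (r1) and replicate 2 (r2) side by side and the genes stacked. The counts of the miR-17 family come almost wholly from Mir93, Mir106b, Mir17 and Mir20a, and Mir92b makes up 93.5% and 93.2% of the miR-92 family's counts. Reads of miR-92a-3p that match both of its loci entered no count, so the miR-92 shares are uncertain.

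The libraries were then compared gene by gene, which is the single contrast the design allows. For each of the 546 genes whose counts reached 10 over both libraries, an exact binomial test (two-sided) asked whether replicate 2 held more or fewer of them than its TMM-scaled size predicts, and p-values were adjusted over all of these genes by Benjamini-Hochberg. It tests counting error only and compares libraries, not conditions. Of the 8 members tested, 5 passed an adjusted p of 0.05, beside 58.8% of all tested genes, so the members' count is close to the background. Mir19a and Mir19b-1 were below the count minimum. Mir17, Mir20a and Mir93 were higher in replicate 2 (24.5% of all tested genes), and Mir92-1 and Mir92-2 were higher in replicate 1 (34.2%).

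Mir17 was 1.27-fold higher in replicate 2, with a log2 ratio of 0.34 (exact 95% interval 0.25 to 0.43) and an adjusted p of 2.75e-14. Mir20a was 1.33-fold higher in replicate 2 (log2 ratio 0.41, 0.28 to 0.54, adjusted exact p of 4.81e-10). Mir93 was 1.08-fold higher (0.11, 0.06 to 0.16, adjusted exact p of 0.000123), the smallest of the differences that passed. In the other direction, Mir92-1 was 1.46-fold higher in replicate 1, with a log2 ratio of -0.55 (-0.65 to -0.45) and an adjusted exact p of 4.85e-27. Mir92-2 was 4.38-fold higher in replicate 1, with a log2 ratio of -2.13 (-2.80 to -1.54) and an adjusted exact p of 1.85e-14.

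Mir106b, Mir18 and Mir25 did not pass. Their log2 ratios were -0.10 (-0.20 to -0.0046), 0.07 (-0.40 to 0.55) and 0.08 (-0.20 to 0.37), with adjusted exact p-values of 0.0647, 0.869 and 0.681. The interval of Mir18 is wide because it rests on 155 counts. The summed Mir17hg hairpins had a log2 ratio of 0.05 (-0.0030 to 0.11) and the summed Mcm7 hairpins 0.06 (0.02 to 0.11). The sum of Mir17hg thus differed between the libraries by less than counting error, while Mir17 and Mir20a on one side and Mir92-1 on the other differed in opposite directions.

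The size of the members' differences was set beside that of all genes. The median size of the log2 ratio, without its sign, was 0.22 over the 8 tested members and 0.50 over all tested genes, and the signed medians were 0.07 and -0.07. Of the members, 1 (Mir92-2) differed by 2-fold or more, beside 25.3% of all tested genes. The biological coefficient of variation, a measure of relative spread between the libraries beyond counting error, was 0.481 over the tested genes. With a test that allows a coefficient of 0.1 between libraries (edgeR's exact test), a smaller spread than the one measured, 28.8% of genes passed, and among members Mir92-1 (adjusted p of 0.0362) and Mir92-2 (3.55e-08) did. Mir17 (0.215), Mir20a (0.142) and Mir93 (0.773) did not.

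**Figure D5:**
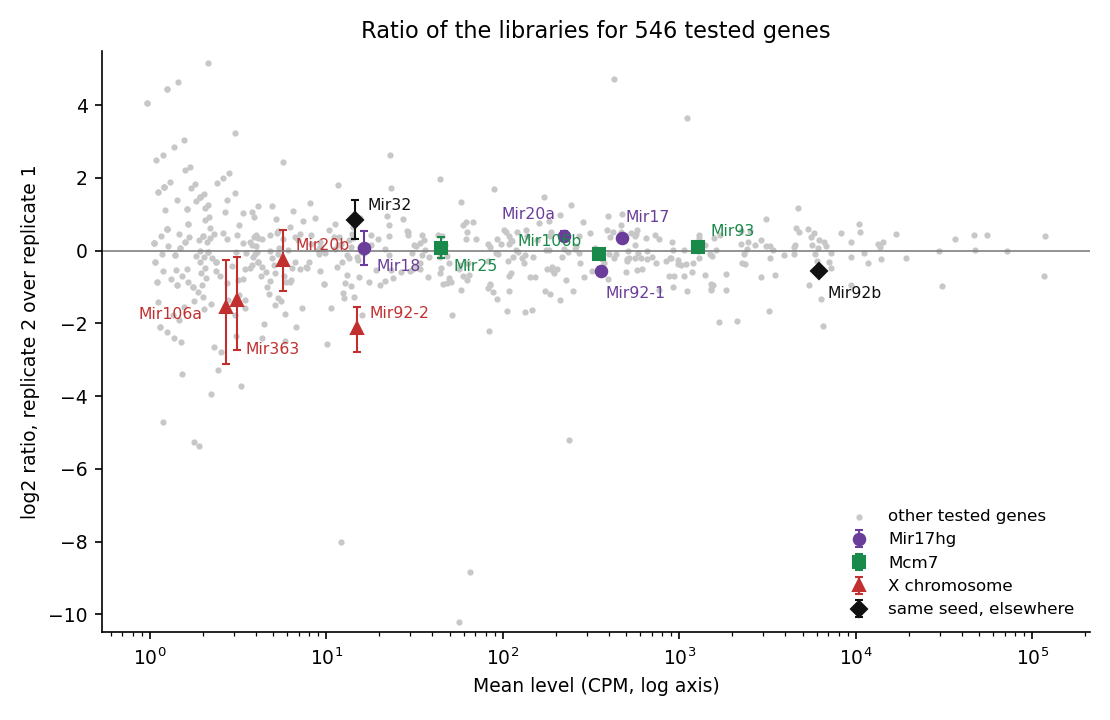
Log2 ratio of replicate 2 over replicate 1 against mean level in CPM (log axis) for all tested genes, with members and relatives in colour and exact 95% intervals for counting error. Mir17, Mir20a and Mir93 lie above 0 and Mir92-1 below it, and Mir92-2 is the lowest of the coloured genes at -2.13.

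Among the 7 relatives, 4 had enough counts to be tested and 3 passed, beside 58.8% of all tested genes. Mir106a (log2 ratio -1.54, adjusted exact p of 0.0227) and Mir363 (-1.36, 0.0366) of the X-chromosome cluster were higher in replicate 1, as Mir92-2 was. Mir20b of the same cluster had 26 and 27 counts and a log2 ratio of -0.27 (adjusted exact p of 0.673). Mir32 was higher in replicate 2 (0.84, adjusted exact p of 0.00253). With edgeR's exact test at a coefficient of 0.1, Mir106a (adjusted p of 0.0663), Mir363 (0.101) and Mir20b (0.791) did not pass, while Mir32 (0.0475) did. Mir92b, with the same seed as Mir92-1, had a log2 ratio of -0.55 (-0.58 to -0.53), and Mir92-1 had the same value to 2 decimals.

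Markers of other cells also differed between the libraries. The erythroid markers, with 2 of 3 detected, summed to 72.4 CPM in replicate 1 and 887 CPM in replicate 2. Mir451a (30.0 and 821 CPM) made up most of that difference, and Mir486 (36.2 and 26.0 CPM) was lower in replicate 2. The endothelial and mural markers, 3 of 4 detected, summed to 13268 and 19327 CPM. Among them the endothelial Mir126a had 7756 and 13122 CPM. Of the mural markers, Mir143 (5276 and 6036 CPM) was higher in replicate 2 and Mir145a (235 and 169 CPM) was lower. The microglial and immune markers, 4 of 6 detected, summed to 4956 and 2261 CPM, mainly through Mir21a (3357 and 899 CPM), which other cell types also express. Mir146 (1335 and 1074 CPM), Mir223 (7.57 and 3.10 CPM) and Mir146b (2.13 and 0 CPM) were also lower in replicate 2. Mir142 (80.9 and 104 CPM) was higher there, and Mir155 (173 and 181 CPM) did not pass (adjusted exact p of 0.741). The pluripotent stem cell markers summed to 423 CPM in replicate 1 and 0.194 CPM in replicate 2, nearly all from the Mir302 hairpins, while Mir367, Mir291a and Mir295 had 0 counts in both. Oligodendrocyte markers (2 of 3 detected) summed to 7100 and 5341 CPM and astrocyte markers (2 of 2) to 33637 and 28698 CPM. Their part in the differences of Mir17, Mir20a, Mir92-1, Mir92-2, Mir106a and Mir363 was not tested.

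The genes nearest to the leading hairpins in level were found by the distance of log2(CPM + 1) over the 2 libraries. For Mir17 they were Mir322 (383 and 555 CPM), Mir134 (442 and 630 CPM) and Mir490 (354 and 588 CPM). For Mir93 they were Mirlet7c-2 (1268 and 1280 CPM), Mir341 (1128 and 1463 CPM) and Mir181b-2 (1314 and 1485 CPM). With 2 libraries this likeness is of level and ratio alone.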

How the data were processed

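The authors deposited raw read counts per miRNA gene for each library, counted on mm10 with GENCODE release M21 annotation, per the record deposited with each table. For aligner, counter and trimming, tools and versions: not given in the sources used here. Counts on the gene's strand were used, and members had none on the opposite strand. Rows naming no gene (unmapped, multimapping, outside genes) held 67.4% and 67.6% of the reads of replicates 1 and 2 and entered neither library sizes nor tests. Gene IDs matched M21 in full (2202). TMM factors, the coefficient of variation (intercept-only fit) and the exact test at a coefficient of 0.1 came from edgeR 4.0.16, and size factors from DESeq2 1.42.0. Other steps used Python 3.11.15 and SciPy 1.17.1. Ratios add 0.5 counts to each library. Simulated counts were also put through the scaling steps, with the outcome not reported here. Named genes were all members, 7 relatives, and the 3 genes nearest to each cluster's most abundant hairpin. Mir92b and Mir6383 came from the seed search, and marker genes from fixed cell type lists, those named singly being chosen after their values were seen. Members and lists were chosen with earlier results of these data known. Reads from the CAST genome may match the reference less well, which was not analysed here.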

Additional observations from a re-analysis of the deposited data

Results flagged for a closer look

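Reads mapping to several places, which enter no gene's count, numbered 5244644 in replicate 1 and 6290303 in replicate 2. They were singled out because they are a signal in a row that no comparison used, and lie above the limit of 3 counts used for a count of 0. The rows do not say which loci the reads came from, so the part of miR-92a-3p and miR-19b-3p in them was not tested.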

How the results depend on the processing

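The replicate number cannot serve as a block. No paired analysis was possible because the design holds 1 group. Of 56 alternatives for the members' log2 ratios (scaling, filter, strand, added counts, test), 52 kept both direction and side of the threshold. With the edgeR exact test at a coefficient of variation of 0.1, 2 members passed in place of 5, with 0 in place of 3 higher in replicate 2 (also 0 at an unadjusted p under 0.05), so that Mir17, Mir20a and Mir93 lost their call. Over all genes 157 passed in place of 321, and 56 in place of 134 higher in replicate 2. With a minimum of 100 counts, where fewer genes are tested, Mir106b passed. With counts on either strand, sums over fewer counted reads were 1150 CPM for Mir17hg, 1796 CPM for Mcm7 and 17.7 CPM for the miR-18 seed. With all reads of the table as denominator they were 348 CPM, 543 CPM and 5.34 CPM, and 756 CPM for the miR-17 seed and 2154 CPM for the miR-92 seed. With either library left out, a level is that of the other library, which lies within 1 SD of the mean in any case and says nothing about stability. Counts limit the precision for Mir18, with 155 counts in all, and for the X-chromosome hairpins, whose cluster had 165 counts in replicate 1 and 72 in replicate 2.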
